A study of Mus musculus with 6 samples.

Results

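The mitochondrial ribosomal protein genes were taken as every protein-coding gene of the table whose symbol starts with Mrpl or Mrps followed by a number, which gave 78 of 54532 genes. Of these, 49 carry an Mrpl name, for the large subunit, and 29 an Mrps name, for the small subunit. They were measured in haploid mouse embryonic stem cells of strain 129SV, which carry a single chromosome set. One group was p53-deficient haploid cells (3 libraries, titled P53ki, with the genotype given as P53 - and the design text calling them a knockout), and the other was wild-type (WT) haploid cells (3 libraries, titled WT-haESC-T3-1). Neither the allele nor the number of lines or clones behind each group is given in the labels. The series deals with apoptosis and the return of haploid cells to diploidy, and its design sets p53-deficient against WT transcriptomes.

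The mitochondrial ribosome makes the few membrane proteins of the respiratory chain and the ATP synthase that mitochondrial DNA encodes. Its ribosomal RNAs come from mitochondrial DNA, whereas all its proteins are encoded in the nucleus, made in the cytosol and imported. The large subunit forms the peptide bond and holds the exit tunnel, the small subunit binds the messenger RNA and decodes it, and many of their proteins have no counterpart in bacteria.

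Depth, taken as the sum of rebuilt reads over genes, was 21218976, 11536412 and 17568406 reads in p53-deficient libraries and 17065841, 19440659 and 20331905 reads in WT libraries. Trp53, which encodes p53, averaged 9.80 ± 0.155 FPKM in p53-deficient cells and 68.0 ± 3.03 FPKM in WT cells (SD, n = 3 each). FPKM is the number of fragments per kilobase of gene, scaled to library size. The labels do not say that the 3 libraries of a group were separate cultures, so the p-values rest on a spread among libraries that could be technical. Loss of p53 cannot be told apart from a difference of line, clone or culture, and fewer cells of a type cannot be told apart from less RNA per cell. The summed FPKM of 30 fibroblast markers, which feeder cells would carry, was 545 to 574 in the p53-deficient libraries and 2043 to 2053 in the WT libraries. All 27 of these markers that could be tested were lower in p53-deficient cells, and none was at 0 in a whole group. The summed FPKM of 8 pluripotency markers was 2388 to 2458 in p53-deficient and 3372 to 3435 in WT libraries, with 3 called higher, 4 lower, 1 not passing and none at 0. Most of the gap in that sum lay in Dppa5a, at 1115, 1050 and 1060 FPKM in p53-deficient libraries and 2039, 2002 and 1980 FPKM in WT libraries. Nanog averaged 221 ± 6.09 FPKM in p53-deficient and 330 ± 0.879 FPKM in WT cells (log2 fold change -0.57). Zfp42 (-0.12) and Tdgf1 (-0.08) were called lower as well. Pou5f1 (0.13), Klf4 (0.13) and Esrrb (0.88) were called higher, but only Esrrb stayed so when libraries were scaled by their median log2 ratio. The summed FPKM of 4 Y-linked genes was 0.330 to 0.395 in p53-deficient and 3.51 to 3.94 in WT libraries. These differences run alongside every result below, and their part in them was not tested.

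Most mitochondrial ribosomal protein genes were expressed somewhat more in p53-deficient cells than in WT cells. Of the 77 that could be tested, 57 were called higher and 7 lower at an adjusted p under 0.05 (limma on log2(FPKM + 1), Benjamini-Hochberg over 15144 genes), and 13 did not pass. Among all tested genes, 66.5% were called, 35.3% higher and 31.3% lower, so a call in either direction was common in this comparison, and the members' shares were 74.0% and 9.09%. Their median log2 fold change was 0.19, against 0.03 for all tested genes, and the middle 50% of members lay between 0.11 and 0.34. When libraries were scaled by their median log2 ratio, 35 members were higher and 10 lower, with a median of 0.094, beside 28.1% and 37.1% of all genes and a median of -0.05. Quantile normalization gave 41 and 8, with a median of 0.15, beside 36.7% and 29.8% of all genes. Reads of 17 members are uncertain, because of an expressed near-identical copy or of exon shared with another gene, and without them 44 of 61 members were higher and 6 lower.

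The changes were small next to those elsewhere in the table. Only Mrpl12 was changed at least 2-fold, whereas 9.72% of all tested genes were called and changed by that much, and 5 members had a log2 fold change of 0.5 or more. The median member had a mean FPKM 14.8% higher in p53-deficient cells. In 65 of the 77 members the 3 p53-deficient libraries did not overlap the 3 WT libraries, 58 times with the p53-deficient libraries higher and 7 times lower. Such separation was found in 71.4% of all tested genes, 37.7% with the p53-deficient libraries higher and 33.7% with them lower. Members are well expressed, and 7944 protein-coding genes lay in the same range of mean FPKM, 3.09 to 85.7. Of those, 45.4% were called higher and 31.0% lower, with a median log2 fold change of 0.082. Over all tested protein-coding genes the shares were 38.3% and 34.7%. The remaining member, Mrpl53, was listed at 0 in all 6 libraries, and 88.0% of its exon length is shared with another gene on the same strand, Gm42688. That gene was itself low, at 0.077 FPKM on average in p53-deficient cells and 0.098 FPKM in WT cells, and was not tested.

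**Figure D1:**
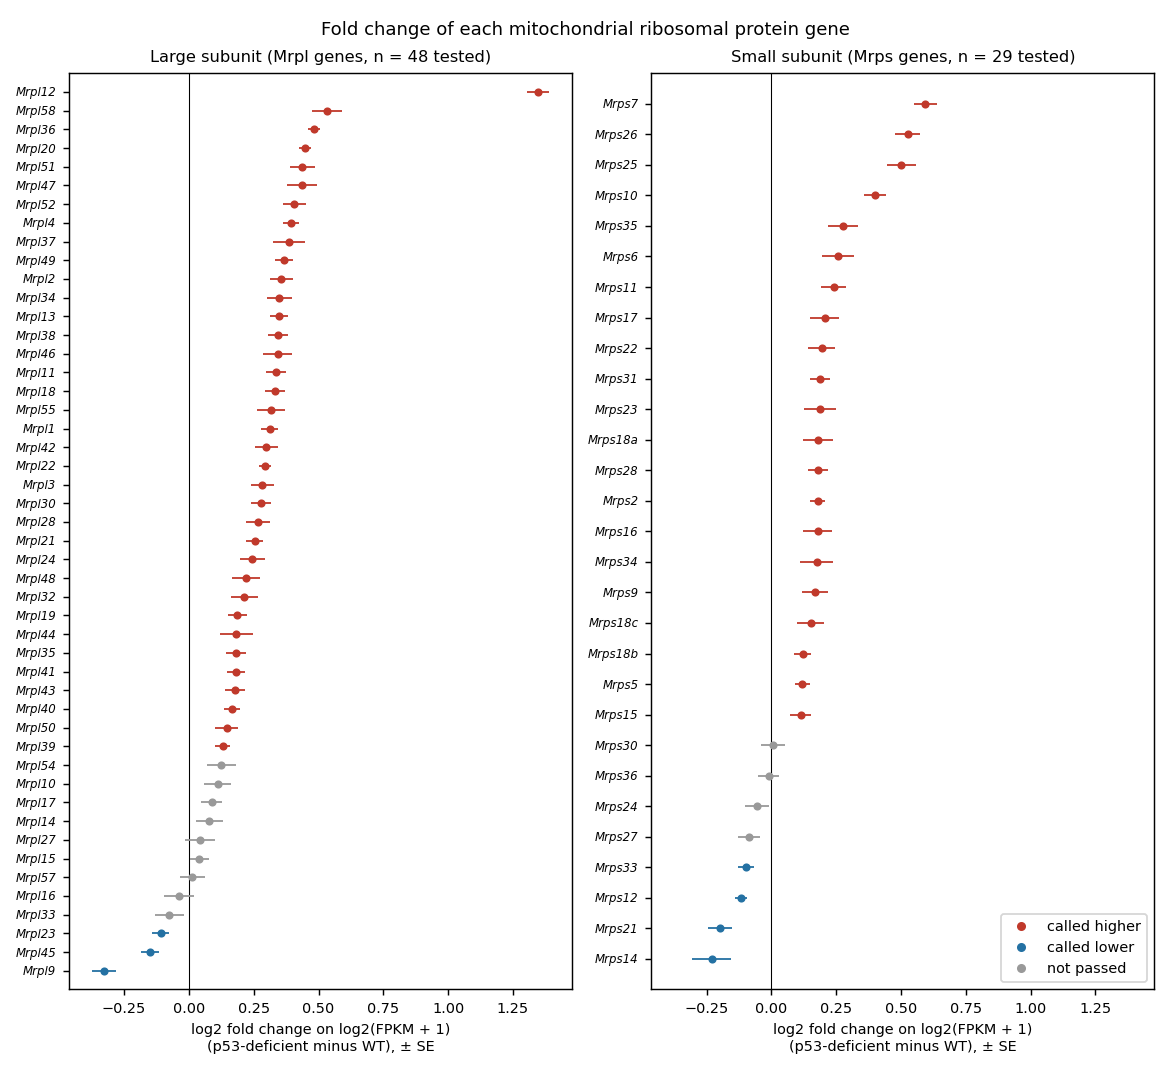
Log2 fold change of each tested member (p53-deficient minus WT, on log2(FPKM + 1), points with SE), large subunit on the left and small subunit on the right. Red members were called higher, blue ones lower and grey ones did not pass. Most members lie a little to the right of 0, and Mrpl12, at 1.35, lies apart from the rest.

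Summed over its genes, the large subunit reached 1718, 1646 and 1627 FPKM in the p53-deficient libraries, against 1362, 1361 and 1326 FPKM in the WT libraries. The small subunit reached 650, 637 and 622 FPKM in p53-deficient libraries and 598, 580 and 579 FPKM in WT libraries. On the deposited scale both sums were therefore higher in each p53-deficient library than in any WT library. When libraries were scaled by their median log2 ratio, the median log2 fold change of the small subunit fell from 0.18 to 0.083. Whether the small subunit sums stay apart after rescaling was not tested. The ratio of the large to the small sum was 2.61 ± 0.0287 in p53-deficient cells and 2.31 ± 0.0378 in WT cells (SD, n = 3 each), and the libraries did not overlap. Without Mrpl12, which was left out after its value was seen, the ratio was 2.44 ± 0.0225 in p53-deficient cells and 2.23 ± 0.0388 in WT cells, again without overlap. These sums are a description, because no test was made of a score over genes chosen with earlier results known.

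Gene by gene, 36 of 48 tested large subunit genes were called higher and 3 lower, with a median log2 fold change of 0.26. In the small subunit 21 of 29 were called higher and 4 lower, with a median of 0.18. Both rescalings lowered the medians and the counts of higher genes in both subunits. Scaled by the median log2 ratio, 27 large subunit genes were higher and 4 lower, against 8 higher and 6 lower in the small subunit, with medians of 0.16 and 0.083. Quantile normalization left 30 and 2 in the large subunit and 11 and 6 in the small subunit, with medians of 0.19 and 0.096. The share of small subunit genes called higher was then near that of all tested genes, at 27.6% beside 28.1% when scaled by the median log2 ratio and at 37.9% beside 36.7% after quantile normalization. The large subunit stood at 56.2% and 62.5%. The share of small subunit genes called lower was 20.7% under both rescalings, beside 37.1% and 29.8% of all tested genes. The medians over all tested genes were -0.049 and 0.053. The difference between the subunits was not tested. For 3 genes the name does not match the place of the protein. Mrps30 and Mrps18a are found in the large subunit of the solved mammalian structure, and Mrps36 belongs to the alpha-ketoglutarate dehydrogenase complex. Placed accordingly, the medians were 0.25 for the large and 0.18 for the small subunit.

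**Figure D2:**
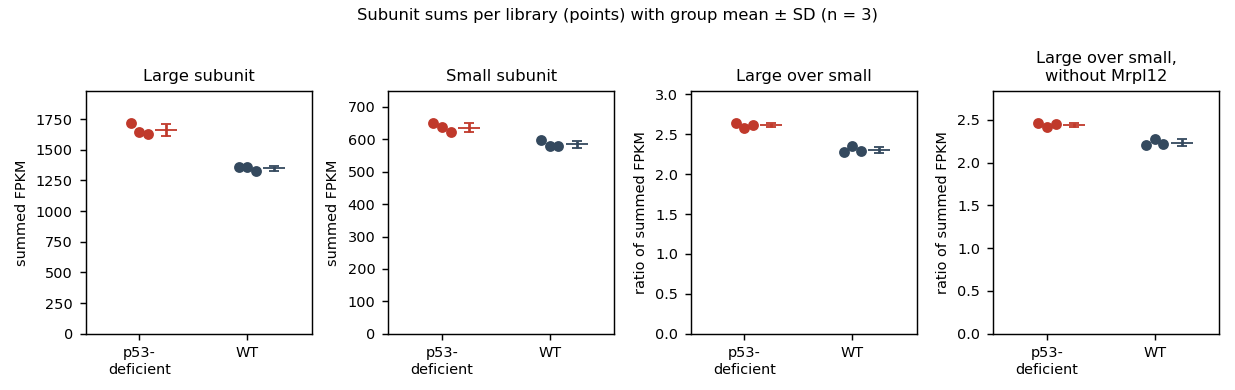
Summed FPKM of the large and small subunit genes, and the ratio of the 2 sums with and without Mrpl12, in each of the 6 libraries (points) with the group mean ± SD (n = 3). In all 4 panels, on the deposited scale, the p53-deficient libraries lie above the WT libraries. Without Mrpl12 the gap in the ratio is narrower but remains.

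The 77 members spanned a wide range of levels within each group. Mean FPKM ran from 3.40 to 109 in p53-deficient cells, with a median of 27.3, and from 2.78 to 75.2 in WT cells, with a median of 22.5. FPKM ran against the gene length it is divided by, with a Spearman's rho of -0.82 between deposited length and WT FPKM across the 77 genes. That length was at least 2 times the length of the principal transcript for 21 members. Per kilobase of the principal transcript instead, the reads, scaled to library size, ran from 6.47 to 165 in p53-deficient cells and from 5.35 to 127 in WT cells, lowest for Mrpl48 in both groups. Mrpl48 has a near-identical copy, Mrpl48-ps, listed at 7.23 FPKM on average, so its reads and the low end of the range are uncertain. The order of the genes was nearly the same in both groups (Spearman's rho 0.98 across 77 genes, which share the libraries and the lengths). Neither length (rho 0.08) nor mean FPKM (rho 0.06) ran along with the fold change across genes.

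Mrpl12 encodes the protein of the flexible stalk of the large subunit that recruits translation factors, and it has also been described as a partner of the mitochondrial RNA polymerase. The gene lies on chromosome 11 (mm10, 120484613 to 120489065, plus strand; ENSMUSG00000039640). It held 116, 105 and 105 FPKM in the p53-deficient libraries, against 42.7, 40.9 and 42.7 FPKM in the WT libraries. That made it the member with the highest FPKM in p53-deficient cells, and the groups stood far apart. Its mean was 2.58 times as high in p53-deficient cells (log2 fold change 1.35, SE 0.0427, limma adjusted p = 9.43e-07). The 2 other stalk genes were added here after their values were seen. Mrpl11, at the base of the stalk, averaged 25.2 ± 1.19 FPKM in p53-deficient cells and 19.7 ± 0.0944 FPKM in WT cells, a log2 fold change of 0.34, close to that of many members. Mrpl10, which anchors Mrpl12, averaged 30.1 ± 2.19 FPKM in p53-deficient cells and 27.8 ± 0.664 FPKM in WT cells (log2 fold change 0.11, limma adjusted p = 0.103).

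The other largest rises in the large subunit were of similar size to each other. Mrpl58, also known as Ict1, releases peptides from stalled ribosomes as well as being a structural protein. It held 18.3, 18.2 and 16.2 FPKM in p53-deficient libraries and 11.8, 12.4 and 11.2 FPKM in WT libraries (log2 fold change 0.53, SE 0.0575, adjusted p = 0.000218). Mrpl36, a small protein with a bacterial counterpart, held 47.3, 46.6 and 46.2 FPKM in p53-deficient libraries against 33.7, 32.9 and 32.9 FPKM in WT libraries (0.48, SE 0.0225, adjusted p = 4.83e-06). For both genes the lowest p53-deficient library lay well above the highest WT library. Mrpl20, which binds the large ribosomal RNA, held 56.2, 56.8 and 55.2 FPKM in p53-deficient and 40.7, 41.5 and 40.4 FPKM in WT libraries (0.45, SE 0.0230, adjusted p = 7.39e-06). Mrpl51 and Mrpl52, which have no bacterial counterpart, rose as well. Mrpl51 averaged 23.1 ± 1.24 FPKM in p53-deficient cells and 16.8 ± 0.754 FPKM in WT cells (0.44, adjusted p = 0.000266). Mrpl52 held 66.2, 58.3 and 62.9 FPKM in p53-deficient and 46.8, 47.2 and 46.3 FPKM in WT libraries (0.41, adjusted p = 0.000265). The libraries of the 2 groups were apart in all 3 genes. Mrpl47 averaged 10.7 ± 0.508 FPKM in p53-deficient cells and 7.66 ± 0.545 FPKM in WT cells (0.44, adjusted p = 0.000591). It shares 24.2% of its exon length with neighbouring genes.

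By FPKM, which uses the deposited length, the 5 most abundant members over both groups were the large subunit genes Mrpl12, Mrpl52, Mrpl34, Mrpl2 and Mrpl28. Per kilobase of the principal transcript the highest in p53-deficient cells were Mrpl52 (165), Mrpl42 (155), Mrpl30 (151), Mrpl12 (126) and Mrpl20 (122), in reads scaled to library size. Mrpl42 has a near-identical copy, Gm6419, and its reads are uncertain. Mrpl34 held 103, 93.5 and 92.2 FPKM in p53-deficient libraries, against 77.0, 75.9 and 72.7 FPKM in WT libraries (log2 fold change 0.35, adjusted p = 0.000612). Mrpl2, which lies close to the peptidyl transferase centre, held 92.9, 98.8 and 87.8 FPKM in p53-deficient and 73.9, 73.1 and 70.3 FPKM in WT libraries (0.36, adjusted p = 0.000496). Mrpl28 averaged 79.3 ± 4.32 FPKM in p53-deficient cells and 65.7 ± 2.25 FPKM in WT cells (0.27, adjusted p = 0.00197). In none of the 3 genes did the groups overlap.

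Besides Mrpl9, 2 large subunit genes were called lower. Mrpl45, which holds the ribosome at the inner membrane, held 39.6, 36.7 and 39.2 FPKM in p53-deficient libraries and 43.4, 42.2 and 42.9 FPKM in WT libraries, and was called lower (log2 fold change -0.15, SE 0.0339, adjusted p = 0.00724). Mrpl23 was called lower too, at 7.17, 6.91 and 7.22 FPKM in p53-deficient and 7.70, 7.66 and 7.86 FPKM in WT libraries (-0.11, adjusted p = 0.0247). The call of Mrpl23 was lost without WT replicate 1, 2 or 3, without p53-deficient replicate 2 and after quantile normalization (adjusted p = 0.0560), and its adjusted p ran from 0.00192 to 0.0809 over the alternatives.

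Mrpl9, whose bacterial counterpart is an elongated protein that reaches out of the large subunit, showed the largest fall of all members. It held 20.6, 18.9 and 20.5 FPKM in the p53-deficient libraries, against 24.3, 25.2 and 26.6 FPKM in the WT libraries, so that the groups did not overlap. The log2 fold change was -0.33 (SE 0.0464, limma adjusted p = 0.000803), and the mean fell by 21.2%. Mrpl15, Mrpl16 and Mrpl57 were the large subunit genes nearest to no change, with log2 fold changes of 0.04, -0.04 and 0.01 and overlapping libraries (adjusted p = 0.356, 0.593 and 0.833).

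In the small subunit the largest rise was that of Mrps7, a protein of the head that binds the small ribosomal RNA. It held 40.8, 37.8 and 36.5 FPKM in p53-deficient libraries and 25.8, 24.7 and 24.7 FPKM in WT libraries (log2 fold change 0.59, SE 0.0448, adjusted p = 4.02e-05). Mrps26, specific to mitochondria, held 16.7, 15.3 and 14.8 FPKM in p53-deficient and 10.3, 10.8 and 10.5 FPKM in WT libraries (0.53, SE 0.0485, adjusted p = 0.000103). Both separated the groups by more than the spread within either. Mrps25, also specific to mitochondria, rose by a log2 fold change of 0.50 (11.8 ± 0.575 FPKM in p53-deficient cells and 8.04 ± 0.555 FPKM in WT cells, adjusted p = 0.000267). However, 69.8% of its exon length is shared with Nr2c2 on the opposite strand, and the kit is not stated to mark the strand. Nr2c2 was itself called lower (-0.26). Besides the genes with the 10 largest rises, 47 members of both subunits were called higher, by log2 fold changes from 0.11 (Mrps15) to 0.40 (Mrps10). Mrps34 is among them (0.17), with 77.8% of its exon length shared with other genes. The 13 members that did not pass ran from -0.09 (Mrps27) to 0.12 (Mrpl54), and Mrpl10 was the only one of these whose groups did not overlap.

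The 4 small subunit genes called lower differed by small amounts. Mrps14, of the head, held 13.6, 13.6 and 11.4 FPKM in p53-deficient libraries and 16.03, 15.5 and 14.1 FPKM in WT libraries (log2 fold change -0.23, adjusted p = 0.0334). Mrps21 held 39.1, 37.6 and 37.5 FPKM in p53-deficient and 47.02, 42.0 and 42.6 FPKM in WT libraries (-0.20, adjusted p = 0.00840). Mrps12, the protein of the decoding centre, held 46.9, 46.2 and 47.8 FPKM in p53-deficient and 51.1, 51.3 and 50.7 FPKM in WT libraries (-0.12, adjusted p = 0.00338). The groups did not overlap in any of these, though the gap of Mrps14 was narrow and its call was lost without WT replicate 1, WT replicate 2 or p53-deficient replicate 3, and with no filter on low values (adjusted p from 0.000586 to 0.102 over all alternatives). Mrps33 averaged 17.3 ± 0.321 FPKM in p53-deficient cells and 18.6 ± 0.537 FPKM in WT cells (-0.10, adjusted p = 0.0292), a call lost without WT replicate 1 or 2 or p53-deficient replicate 1 or 2, without a variance trend and with voom weights (adjusted p from 0.00169 to 0.0922 over the alternatives). A near-identical copy of Mrps33, Gm5776, is listed at 15.3 FPKM on average, and no source used here says how reads that match both were counted.

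**Figure D3:**
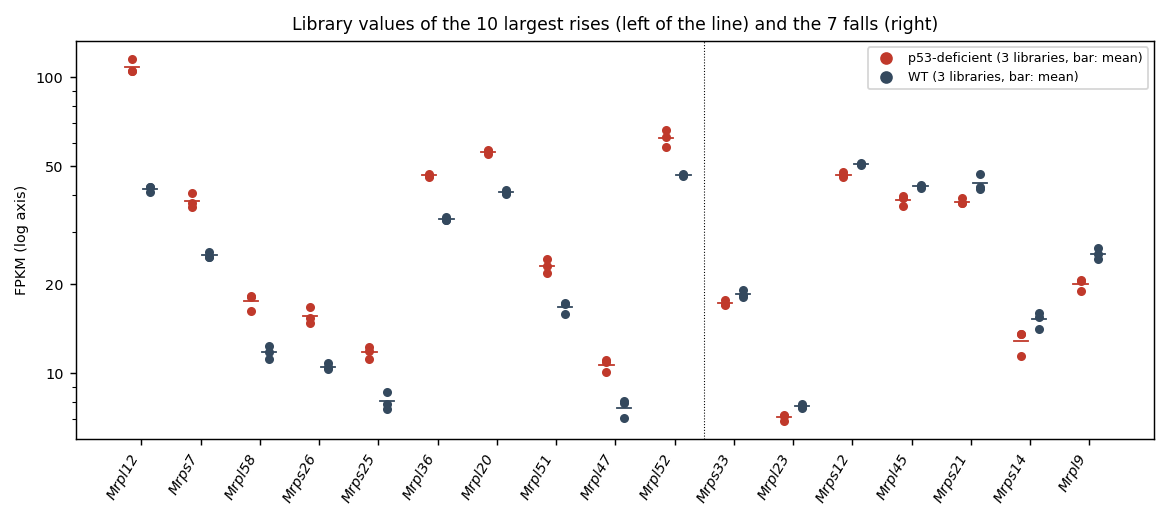
FPKM (log axis) of the 10 members with the largest rises and the 7 members called lower, with 1 point per library and a bar at the group mean, p53-deficient in red and WT in dark blue. The 2 groups of points do not overlap in any of the 17 genes, and the gap is widest for Mrpl12.

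The paralogues Mrps18a, Mrps18b and Mrps18c, which encode 3 versions of a single bacterial protein, were all called higher, by small amounts. Mrps18a averaged 10.2 ± 0.555 FPKM in p53-deficient cells and 8.88 ± 0.640 FPKM in WT cells (log2 fold change 0.18, adjusted p = 0.0330). Mrps18b averaged 19.7 ± 0.398 FPKM in p53-deficient cells and 18.1 ± 0.646 FPKM in WT cells (0.12, adjusted p = 0.0181), and Mrps18c averaged 27.3 ± 0.468 FPKM in p53-deficient cells and 24.5 ± 1.82 FPKM in WT cells (0.15, adjusted p = 0.0396). Each call was also lost in some fits with 1 library left out: without WT replicate 2 or 3 or p53-deficient replicate 1 or 3 for Mrps18a, without WT replicate 1 or 3 or p53-deficient replicate 3 for Mrps18b, and without WT replicate 2 or 3 or any p53-deficient replicate for Mrps18c. None of the 3 calls held after scaling by the median log2 ratio (adjusted p = 0.206, 0.527 and 0.371), and over all alternatives their adjusted p ran from 0.00625 to 0.206, from 0.0120 to 0.527 and from 0.00998 to 0.403. Reads of Mrps18b and Mrps18c are uncertain. Mrps18b has a near-identical copy, Gm13552, listed at 7.33 FPKM on average, and shares 30.5% of its exon length with another gene. Mrps18c shares 23.2% of its exon length. Mrps30 and Mrps36, whose names and places differ, did not pass, with log2 fold changes of 0.01 and -0.01 and overlapping libraries (adjusted p = 0.913 and 0.844).

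Members were also split by whether they have a counterpart in bacteria, and the difference was not tested. Of the 47 tested members with a bacterial counterpart, 34 were called higher and 5 lower, with a median log2 fold change of 0.19. Of the 30 specific to mitochondria, 23 were higher and 2 lower, also with a median of 0.19, beside 35.3% of all tested genes called higher and 31.3% called lower. After quantile normalization the medians were 0.15 with and 0.11 without a counterpart. The tested members lay on 17 chromosomes, and their median exceeded that of all tested genes of the chromosome on 16 of them. The exception was chromosome 13, where 2 of 5 members were higher and the median member was at 0.01.

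The surroundings of Mrpl12 were compared with those of other members after its value was seen. Within 500 kb of its start 44 other genes were tested, of which 26 were called higher and 7 lower, with a median log2 fold change of 0.44. The same median over the neighbours of each of the 77 members had a midpoint of 0.02, and that of Mrpl12 was the highest. Of the 26 genes whose starts lie between -400 and 150 kb from that of Mrpl12, 22 were called higher, 1 lower and 3 did not pass, and 10 rose at least 2-fold. Their median log2 fold change was 0.87. The other 47 genes within 1500 kb had a median of 0.05, with 20 higher and 12 lower. The limits of this stretch were set by eye from the values, so the contrast between inside and outside is a description.

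Within that stretch Slc25a10, which starts 7.23 kb after Mrpl12 and encodes a dicarboxylate carrier of the inner mitochondrial membrane, averaged 12.2 ± 0.424 FPKM in p53-deficient cells and 4.67 ± 0.161 FPKM in WT cells (log2 fold change 1.22). Ndufaf8, an assembly factor of respiratory complex I, averaged 43.3 ± 2.36 FPKM in p53-deficient cells and 17.6 ± 0.972 FPKM in WT cells (adjusted p = 3.02e-06). Alyref, an mRNA export factor, averaged 111 ± 4.52 FPKM in p53-deficient cells and 41.3 ± 1.00 FPKM in WT cells (1.41). Genes with unrelated products rose by as much, among them Pcyt2 of phospholipid synthesis (1.57), Faap100 of DNA repair (1.36), Nploc4 of the p97 system (1.13) and the actin gene Actg1 (1.08). Just past the end of the stretch Pycr1, of proline synthesis, was lower (9.91 ± 0.404 FPKM in p53-deficient and 15.6 ± 0.249 FPKM in WT cells, -0.60). Outside the stretch 3 genes also rose at least 2-fold. These were Hmga1b at 278 kb (1.79, the largest rise within 1500 kb), Tex19.2 at 634 kb (1.49) and Eif4a3 at -1185 kb (1.39).

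**Figure D4:**
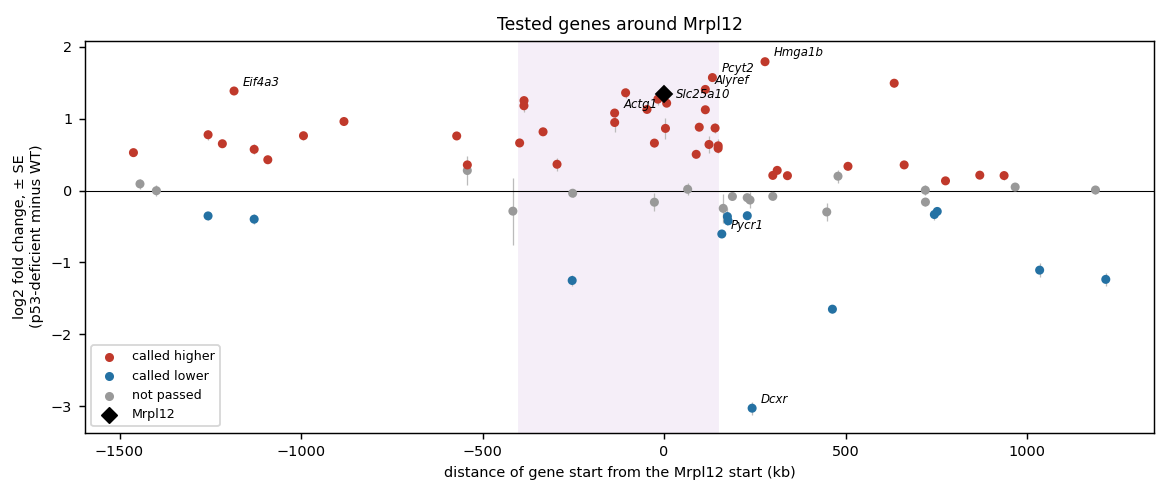
Log2 fold change (± SE, p53-deficient minus WT) of tested genes against the distance of their start from the start of Mrpl12, in kb, with genes called higher in red, lower in blue and not passing in grey. The shaded stretch runs from -400 to 150 kb and holds 26 genes with a median of 0.87, beside a median of 0.05 for the 47 genes outside it.

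Many members share a start region with a gene on the opposite strand, which was looked into after the values were seen. In 29 members such a partner was tested with its start within 1000 bases. The partner was called higher for 17 of the 29 and lower for 6, beside 35.3% of all tested genes called higher and 31.3% called lower. For the 23 of these members that were called higher, the partner was higher in 14 and lower in 5. Mrpl46 and Mrps11, of the large and the small subunit, are each other's partner, so that this pair counts for both genes, and both rose (log2 fold changes 0.34 and 0.24). Mrps7 (0.59) is paired with Gga3 (0.33), a sorting adaptor of the Golgi. Mrps12 (-0.12) is paired with Sars2, the mitochondrial seryl-tRNA synthetase, which went the other way (0.29). Mrpl43 (0.18) is paired with Twnk, the mitochondrial DNA helicase (0.88), and shares 33.4% of its exon length with it on the opposite strand.

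The promoter sequences below are shown because Mrpl12, Mrps7 and Mrpl9 had the largest rise, the largest small subunit rise and the largest fall, and because the Mrps11 window overlaps that of Mrpl46 by 141 bases. They come from RefSeq (GRCm38.p6, the assembly behind mm10) and run 5′ to 3′ on the gene's strand, the plus strand for all 4, over 300 bases from 250 before the start to 50 after it. Mrpl12 is chr11:120484387-120484686, Mrps7 is chr11:115603890-115604189, Mrpl9 is chr3:94443086-94443385 and Mrps11 is chr7:78782881-78783180. Capitals mark the matches found to the NRF1 motif (GCGC and TGCGC with 1 base between them), the ETS motif CCGGAAG, the YY1 motif AAGATGGC, the SP1 motif GGGCGG and the CCAAT box CCAAT, each searched on both strands.
Mrpl12: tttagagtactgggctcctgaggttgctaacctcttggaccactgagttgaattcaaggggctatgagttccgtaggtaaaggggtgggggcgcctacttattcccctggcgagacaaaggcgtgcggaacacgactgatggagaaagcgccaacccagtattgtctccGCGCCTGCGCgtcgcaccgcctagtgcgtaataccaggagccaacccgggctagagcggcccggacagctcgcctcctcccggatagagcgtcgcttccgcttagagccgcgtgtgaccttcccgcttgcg
Mrps7: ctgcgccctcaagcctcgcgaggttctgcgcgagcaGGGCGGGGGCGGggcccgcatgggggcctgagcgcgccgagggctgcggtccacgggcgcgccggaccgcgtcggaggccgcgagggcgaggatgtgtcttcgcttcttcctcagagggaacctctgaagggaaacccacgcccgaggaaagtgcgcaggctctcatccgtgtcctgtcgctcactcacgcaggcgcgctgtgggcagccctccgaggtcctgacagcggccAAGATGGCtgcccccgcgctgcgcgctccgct
Mrpl9: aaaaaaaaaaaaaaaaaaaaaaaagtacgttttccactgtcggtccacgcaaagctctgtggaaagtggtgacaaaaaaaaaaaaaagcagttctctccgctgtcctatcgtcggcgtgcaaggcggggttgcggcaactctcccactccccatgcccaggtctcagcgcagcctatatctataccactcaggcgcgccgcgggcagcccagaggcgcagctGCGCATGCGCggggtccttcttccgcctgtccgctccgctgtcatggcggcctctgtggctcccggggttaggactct
Mrps11: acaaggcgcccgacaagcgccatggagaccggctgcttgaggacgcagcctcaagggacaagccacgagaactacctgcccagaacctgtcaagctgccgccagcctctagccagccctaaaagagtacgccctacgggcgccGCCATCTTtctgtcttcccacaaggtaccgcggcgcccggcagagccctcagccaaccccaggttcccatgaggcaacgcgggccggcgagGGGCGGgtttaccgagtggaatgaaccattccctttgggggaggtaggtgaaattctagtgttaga
The Mrpl12 and Mrpl9 windows each hold 1 NRF1 match, although the genes moved in opposite directions. The Mrps7 window holds 1 YY1 match and 2 adjoining SP1 matches, which lie before the RefSeq start but next to the gene start of the deposited table (115603925), and the Mrps11 window holds 1 YY1 and 1 SP1 match.

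RefSeq windows were matched for 69 of the 78 members. NRF1, a transcription factor known for driving nuclear genes of mitochondria, had a motif match in 18.8% of these 69 genes, against 11.6% of 9599 tested protein-coding genes and 5.19% of all 27025 genes with a window. The ETS motif, which GABP (encoded in part by Gabpa) can bind, matched in 37.7% of members, 20.4% of tested protein-coding genes and 9.93% of all genes. The YY1 motif matched in 17.4%, 5.39% and 3.19% of the same sets. The SP1 motif was less frequent among members (49.3%) than among tested protein-coding genes (69.7%), and the CCAAT box was at 39.1% and 43.7%. Among members called higher the NRF1 motif was in 7 of 50 and among those called lower in 3 of 7, and the ETS motif was in 17 of 50 and 3 of 7. None of the motifs was found in 5 members. These are matches of letters in the windows, and binding was not measured.

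Genes for the regulators themselves moved in both directions. Of 10 tested regulators of mitochondrial genes, 6 (60%) were called higher and 4 (40%) lower, under the deposited scale and under both rescalings. Of all tested genes, 35.3% were called higher and 31.3% lower on the deposited scale. Those shares were 28.1% and 37.1% when scaled by the median log2 ratio, and 36.7% and 29.8% after quantile normalization. Myc, a growth regulator, held 18.2, 17.1 and 16.6 FPKM in p53-deficient libraries and 7.16, 6.91 and 6.52 FPKM in WT libraries (log2 fold change 1.22, limma adjusted p = 2.17e-06). Yy1 averaged 28.6 ± 0.422 FPKM in p53-deficient cells and 19.1 ± 0.51 FPKM in WT cells (0.56), and Nrf1 (0.21) and Gabpa (0.26) rose less. The remaining higher calls were Pprc1 (0.54) and Ppargc1b (0.37). Esrra, an orphan nuclear receptor of mitochondrial genes, fell to 8.75 ± 0.528 FPKM in p53-deficient cells, against 14.6 ± 0.595 FPKM in WT cells (-0.68). Mycn, at 33.5 ± 1.23 FPKM in p53-deficient cells and 42.9 ± 0.342 FPKM in WT cells, was called lower too (-0.35). The remaining lower calls were Gabpb1 (-0.32), which like Gabpa encodes part of GABP, and Sp1 (-0.19).

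In the other nuclear lists more genes were called higher than lower, except in matrix protein import, with 6 of each. The counts below stand beside 35.3% of all tested genes called higher and 31.3% called lower. Of the 5 mitoribosome proteins with other names 3 were called higher and none lower, with a median log2 fold change of 0.26. These were Ptcd3 (0.39), which binds RNA in the small subunit, the GTP-binding small subunit protein Dap3 (0.28) and Aurkaip1 (0.26), whereas Chchd1 did not pass (0.05, adjusted p = 0.351). Of 30 genes for ribosome assembly and ribosomal RNA modification, 19 were higher and 2 lower, with a median of 0.28. Trmt61b, an RNA methyltransferase, held 3.51, 2.81 and 2.84 FPKM in p53-deficient libraries and 0.939, 0.683 and 1.01 FPKM in WT libraries (1.11). Rbfa, a maturation factor of the small subunit, held 73.0, 68.6 and 69.8 FPKM in p53-deficient libraries and 39.2, 36.1 and 35.2 FPKM in WT libraries (0.92), and Noa1, a GTPase of small subunit assembly, rose by 0.86. C1qbp, a protein of the matrix, averaged 98.6 ± 1.02 FPKM in p53-deficient cells and 99.3 ± 2.87 FPKM in WT cells and did not pass (-0.01, adjusted p = 0.769), but was called lower after both rescalings (-0.11 and -0.09).

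Among 16 translation factors 11 were called higher and none lower, with a median log2 fold change of 0.23. Tufm, the mitochondrial elongation factor Tu, held 81.0, 79.9 and 77.2 FPKM in p53-deficient libraries and 61.9, 59.0 and 59.4 FPKM in WT libraries (0.40). Mtrf1l, a release factor, rose by 0.58, and Mtfmt, which formylates the initiator methionyl-tRNA, by 0.42, whereas Taco1, a translational activator, did not pass (0.10, adjusted p = 0.114). Of 20 genes that charge mitochondrial transfer RNAs, 13 were higher and 4 lower (median 0.23). Qrsl1, of the amidotransferase that makes glutaminyl-tRNA (0.55), and Aars2, the alanyl-tRNA synthetase (0.55), rose, and Lars2, the leucyl-tRNA synthetase, fell to 1.02, 0.968 and 0.956 FPKM in p53-deficient libraries, against 2.34, 2.30 and 2.21 FPKM in WT libraries (-0.73). Pars2 did not pass (0.01, adjusted p = 0.895).

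Of 16 genes that maintain, transcribe or process mitochondrial nucleic acid 12 were higher and none lower, with a median log2 fold change of 0.29. Twnk rose by 0.88, Trmt10c, a subunit of mitochondrial RNase P, by 0.67 and Elac2, which trims the 3′ ends of transfer RNAs, by 0.53, whereas Tefm did not pass (-0.03, adjusted p = 0.738). After scaling by the median log2 ratio 1 gene was called lower among the translation factors and 1 in this list. In the import machinery of the matrix 6 of 16 genes were higher and 6 lower (median 0.07), shares of 37.5% each that are near those of all tested genes. Timm23, the channel of the inner membrane, averaged 111 ± 12.5 FPKM in p53-deficient cells and 75.7 ± 1.99 FPKM in WT cells (0.55), and its partners Timm17b (0.44) and Timm50 (0.41) were higher too. Other partners of the channel were lower, among them Timm17a (-0.27), a paralogue of Timm17b, and Timm44 (-0.07, adjusted p = 0.0494), and so was the outer membrane receptor Tomm20 (-0.24). Tomm40, the pore of the outer membrane, did not pass (0.07, adjusted p = 0.213).

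**Figure D5:**
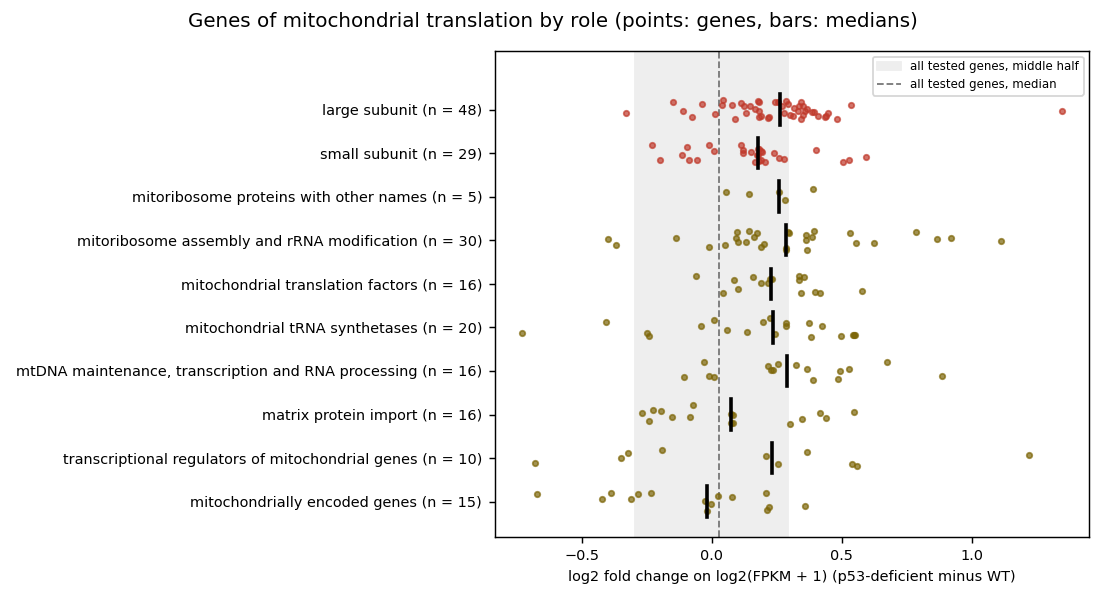
Log2 fold change (p53-deficient minus WT) of single genes (points) by role, with a black bar at the median of each list, in red for the 2 subunits and brown for the other lists. The grey band is the middle 50% of all 15144 tested genes and the dashed line their median, 0.03. On the deposited scale plotted here the medians of the nuclear lists lie right of the line, and that of the mitochondrially encoded genes, -0.02, lies left of it.

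In genes encoded in mitochondrial DNA more calls were lower than higher on the deposited scale and when median-scaled, and quantile normalization gave 5 of each. Of 15 tested, 2 (13.3%) were called higher and 6 (40%) lower, beside 35.3% and 31.3% of all tested genes, with a median log2 fold change of -0.02. The share of these genes in the rebuilt reads was 1.98% ± 0.0520 in p53-deficient cells and 2.23% ± 0.0218 in WT cells (SD, n = 3 each). The members' own share was 0.494% ± 0.00928 in p53-deficient and 0.422% ± 0.00499 in WT cells. The 2 genes called higher encode the RNAs of the mitochondrial ribosome. mt-Rnr1, of the small subunit, held 276, 257 and 243 FPKM in p53-deficient libraries and 200, 206 and 198 FPKM in WT libraries (0.36, adjusted p = 0.000617). mt-Rnr2, of the large subunit, averaged 449 ± 5.49 FPKM in p53-deficient cells and 388 ± 5.39 FPKM in WT cells (0.21). Both were called higher under both rescalings as well. The libraries were made from poly(A)-selected RNA, in which ribosomal RNA is depleted.

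Among the messenger RNAs of mitochondrial DNA, mt-Nd5 fell to 720, 751 and 782 FPKM in p53-deficient libraries, against 1192, 1188 and 1213 FPKM in WT libraries (log2 fold change -0.67, adjusted p = 7.74e-06). mt-Nd6 (-0.42) and mt-Nd4l (-0.39), which like mt-Nd5 encode subunits of complex I, were also lower, and mt-Nd1 did not pass (0.08, adjusted p = 0.119). The other complex I genes mt-Nd2 (0.02), mt-Nd3 (0.21) and mt-Nd4 (-0.02) did not pass either. The remaining lower calls, mt-Co1 (-0.29), mt-Co2 (-0.23) and mt-Co3 (-0.31), lie outside complex I. Whether the libraries kept strand is unknown, so RNA from the opposite strand may add reads to any of these genes. For mt-Nd6 such reads were not set apart, and whether its fall is separate from that of mt-Nd5 was not tested. The balance in this list depended on the scale. Scaling by the median log2 ratio gave 2 higher and 9 (60%) lower, beside 28.1% and 37.1% of all tested genes. Quantile normalization gave 5 higher and 5 lower (33.3% each), beside 36.7% and 29.8%. Quantile normalization sets the highest values by their rank, and it put the differences of mt-Co1 (-0.29 on the deposited scale) and mt-Cytb at exactly 0, so its count is no check of this balance.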

How the data were processed

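Poly-T beads were used to purify mRNA from 3 p53-deficient and 3 WT samples, and the NEBNext Ultra kit was used for the libraries, per the labels' protocols, which do not say that strand was marked. The authors deposited 1 FPKM value per gene and library. According to the submitters' processing notes, HISAT2 2.0.5 and featureCounts 1.5.0-p3 were run on mm10, without a role for either tool. How reads with several matches or in overlapping genes were counted is not stated in these notes.

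Reads were rebuilt by multiplying FPKM by the deposited gene length, since all products above 0 (100%) were whole multiples of one step per library within 0.001. Tested members had 156 to 3725 reads per library. The comparison itself used log2(FPKM + 1), kept genes whose mean FPKM reached 0.5, and was made with limma 3.58.1 (R 4.3.3), a two-sided moderated test with a trended variance. Benjamini-Hochberg adjustment ran over 15144 genes, and a call needs an adjusted p under 0.05. A pseudocount of 1 makes the fold changes of low genes too small. For single genes an exact permutation test of 3 libraries against 3 has 0.1 as its smallest p, so every call leans on the spread that limma shares across genes. Errors are SD over 3 libraries unless given as SE.

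The members and the other gene lists were chosen with earlier results of these data known. Of the members, the text names the 10 largest rises and up to 10 largest falls among called genes with non-overlapping groups (7 were called lower), the 5 most abundant, the 5 nearest to no change at a mean FPKM of at least 5, the Mrps18 paralogues and the genes placed elsewhere by structure. Each other list gives up to 3 called genes and the most abundant one that did not pass. Mrpl10, Mrpl11, Mrpl30, Mrpl42, Mrpl43, Mrpl46, Mrpl48, Mrps10, Mrps11, Mrps15, Mrps27, Mrps34, Mrpl54, Nrf1, Gabpa, Gabpb1, Pprc1, Ppargc1b, Mycn, Sp1, Timm17a, Timm44, Tomm20, Dppa5a, Pou5f1, Klf4, Esrrb, Nanog, Zfp42, Tdgf1, mt-Co1, mt-Co2, mt-Co3, mt-Nd2, mt-Nd3, mt-Nd4, mt-Cytb, mt-Rnr1, mt-Rnr2 and the neighbours of members were named after their values were seen, and Mrpl53 because it could not be tested. Shared exons came from GENCODE mouse release 21, where 98.3% of the genes found have identical coordinates. Near-identical copies came from BLAST+ 2.17.0, with an identity of 95% or higher along 100 or more bases that make up 50% or more of the shorter transcript. A member counts as uncertain with a copy of mean FPKM 0.5 or higher, or with 20% or more of its exon length shared.

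The fit was repeated with other settings for the pseudocount (0.1), the filter (none, or 5), the scale (median log2 ratio, quantile normalization), the variance (no trend, or voom weights on rebuilt reads), the genes (protein-coding alone), the threshold (0.01) and the replicates (number as a block, or 1 library left out). In simulated reads of this comparison with 15132 genes, 49, 49, 48 and 44 genes were given changes of 1.25, 1.5, 2 and 4-fold. These were recovered in 28.6%, 49.0%, 77.1% and 93.2% of cases, and 6 unchanged genes were called. The changed genes were few and drawn from all tested levels, whereas 66.5% of genes were called in the data. The adjusted threshold was therefore stricter in the simulation, and these shares do not give the recovery for members. Figures were made with Python 3.11.15 and matplotlib 3.10.9.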

Additional observations from a re-analysis of the deposited data

How the results depend on the processing

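The count of members called higher, 57, ran from 41 to 57 under the alternatives other than scaling by the median log2 ratio, which gave 35, and was 46 to 52 with 1 library left out. The 7 members called lower became 4 at an adjusted p under 0.01 and were 4 to 6 with 1 library left out, with 4 without WT replicate 1. The median log2 fold change of the large subunit, 0.26, was 0.16 when median-scaled and 0.19 when quantile-normalized, and was 0.23 to 0.27 with 1 library left out. For the small subunit, at 0.18, the same values were 0.083, 0.096 and 0.15 to 0.19, lowest without p53-deficient replicate 1. The difference of the large to small ratio (p53-deficient minus WT), 0.31, was 0.29 to 0.33 with 1 library left out, 0.21 without Mrpl12 (chosen after its value was seen) and 0.090 as a difference of mean log2(FPKM + 1). The difference in median between members with and without a bacterial counterpart, at -0.000637 with no test, became 0.0456 under quantile normalization. Over all genes 10074 calls (4733 lower) became 5944 (2268 lower) at a mean FPKM of at least 5, where fewer genes were tested. The cause of the other shifts was not tested. Replicate numbers do not pair the libraries, since deviations of same-numbered libraries correlated at -0.0328, 0.0142 and 0.00556. With the replicate number as a block 56 members were higher and 5 lower, among 9766 calls over all genes, and the calls of Mrps18b, Mrps33 and Mrpl23 were lost (adjusted p = 0.0519, 0.0636 and 0.0545). Of the 28 members named by rule, none changed direction with a call under any alternative. The median SE of the members' log2 fold changes was 0.0456, and the smallest rise that was called was 8.37% in the means.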
